A study of Homo sapiens with 6 samples.

Results

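The transcripts of 8 genes of BMP (bone morphogenetic protein) signaling and of its ID target genes were followed in ovarian cancer cells under PARP inhibition. The genes were taken from a list of symbols: the ID genes ID1, ID2, ID3 and ID4, the ligands BMP2 and BMP4, the receptor BMPR2 and the inhibitory SMAD6. Each symbol matched a single Ensembl identifier among the 63677 genes of the count table, and all 8 had enough reads to be tested. UWB1.289 is a human ovarian carcinoma cell line that the study describes as BRCA1-deficient, whereas the sample labels give its genotype as WT. Cells received either 4 µM Olaparib, an inhibitor of the poly(ADP-ribose) polymerase PARP1, or its solvent DMSO for 24 h, with 3 samples in each group. The dose of 4 µM is that of the sample labels, and the design text of the series gives 10 µM instead. All samples came from this single cell line and were taken at the same time point. According to the study, the replicates were independent.

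BMPs are secreted ligands of the TGF-beta superfamily. They bind pairs of type I receptors (such as BMPR1A and ACVR1) and type II receptors (such as BMPR2), and the activated type I receptor phosphorylates SMAD1, SMAD5 and SMAD9, which enter the nucleus with SMAD4. The ID genes are classic direct targets of these SMADs. ID proteins are helix-loop-helix proteins that lack a DNA-binding region, so they trap the E proteins TCF3, TCF4 and TCF12 away from their E-box sites and hold back differentiation. SMAD6 and SMAD7 are induced by the pathway and inhibit it, while noggin (NOG) and gremlin (GREM1) bind the ligands outside the cell.

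The start sites of the ID genes are shown because ID1 passed the test described below and ID3 and ID4, the family members next in level, did not. RefSeq promoter windows (GRCh38.p14) were held for 7 of the 8 genes, with no entry for BMP2. The stretch upstream of the start site is printed for ID1 (chr20:31605039-31605282, plus strand, ending 6 bases before the RefSeq start because those bases lie in the annotated gene), ID3 (chr1:23559502-23559751, minus strand) and ID4 (chr6:19837120-19837369, plus strand), 5′ to 3′. That of ID2 was not printed because it lies mostly within exons of longer ID2 transcripts. The full ID1 window of 250 bases also held 94 annotated exon bases, although only 6 of its bases lie in the ID1 gene. Capitals mark matches on either strand to the SMAD box CAGAC, the E-box CANNTG and the TATA-like TATAA.

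ID1: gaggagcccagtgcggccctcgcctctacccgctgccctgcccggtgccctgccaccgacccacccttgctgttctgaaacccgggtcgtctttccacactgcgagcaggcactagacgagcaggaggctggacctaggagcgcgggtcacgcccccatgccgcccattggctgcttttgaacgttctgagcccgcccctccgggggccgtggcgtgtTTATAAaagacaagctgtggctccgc
ID3: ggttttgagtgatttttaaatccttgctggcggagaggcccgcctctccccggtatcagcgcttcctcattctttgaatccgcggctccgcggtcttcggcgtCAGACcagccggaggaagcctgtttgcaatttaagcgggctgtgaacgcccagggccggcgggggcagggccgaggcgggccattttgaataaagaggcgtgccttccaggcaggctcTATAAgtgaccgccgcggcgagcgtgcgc
ID4: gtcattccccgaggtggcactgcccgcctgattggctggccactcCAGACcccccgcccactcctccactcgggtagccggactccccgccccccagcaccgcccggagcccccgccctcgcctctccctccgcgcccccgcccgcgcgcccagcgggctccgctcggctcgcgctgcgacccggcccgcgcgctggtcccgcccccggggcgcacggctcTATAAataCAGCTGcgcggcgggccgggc

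All 3 windows held TATAA near the start site, with its first base at position -31 in ID1 and at -29 in ID3 and ID4, counted backwards from -1 at the base before the RefSeq start. In ID1 the match on this strand overlapped a match on the other strand. TATAA was searched after the sequences had been read, and it occurred on either strand within the 250 bases upstream in 18.9% of 35116 RefSeq promoters. CAGAC occurred in ID3 (position -147) and ID4 (position -205) and not in the window of ID1, against 38% of all promoters. CANNTG occurred in ID4 at position -21, as CAGCTG, and was held by 61.8% of all promoters. The GC-rich SMAD motif GGCGCC had no match in these 3 windows, against 16.4% of all promoters. Such matches describe the letters of the windows, not bound sites. Sequence further upstream than these 250 bases was not searched, and a link between the matches and the response to Olaparib was not tested.

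Total counts lay between 35360458 and 39640775 per sample. Of 7 markers of ovarian carcinoma and epithelium, EPCAM, KRT7, KRT8, KRT18, PAX8 and MUC16 were expressed, while WT1 had at most 2 counts in any sample. Of 11 markers of leukocytes, endothelium and fibroblasts, PECAM1 and LUM were at 0 in every sample and CD3E and DCN had at most 3 counts. The summed level of the leukocyte markers was 1.18 to 1.28 TPM (transcript level scaled by gene length and library total) after Olaparib and 0.93 to 1.41 after DMSO. For the endothelial markers these ranges were 24.8 to 25.7 and 25.7 to 27.3 TPM, and for the fibroblast markers 15.1 to 17.2 and 15.9 to 17.1 TPM. CDH5, at a mean of 25.3 TPM over all samples, made up most of the endothelial sum. COL1A2, at 13.1 TPM, made up most of the fibroblast sum, followed by COL1A1 at 3.1 TPM. Of the 11, 7 were tested and VWF alone passed, at 67.3 ± 3.17 normalized counts after Olaparib and 41.8 ± 1.96 after DMSO (SD, n = 3 each). The epithelial markers summed to 11191 to 11623 TPM after Olaparib and 11101 to 11275 after DMSO, and PAX8 rose by 0.10 on the log2 scale. The part of these markers in the results below was not tested. In such bulk samples, fewer cells of a type and less RNA per cell cannot be told apart.

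Levels were first compared between genes as TPM, which corrects for gene length. ID1 was by far the most abundant of the 8 genes, at 139 ± 10.3 TPM over the 6 samples (SD, n = 6), above 94.7% of the genes tested. BMP4 followed with 31.5 ± 1.01 TPM and BMPR2 with 22.4 ± 0.983 TPM. ID4 (9.66 ± 0.759 TPM) and ID3 (9.07 ± 0.829 TPM) did not differ beyond their spread. ID2 (6.17 ± 0.486 TPM), BMP2 (4.31 ± 0.676 TPM) and SMAD6 (2.41 ± 0.206 TPM) had the lowest levels. Apart from ID4 and ID3, every sample of a gene in this order was above every sample of the next. With the length of the longest transcript in place of all exons, ID3 (10.5 TPM) came before ID4 (7.09 TPM).

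**Figure D1:**
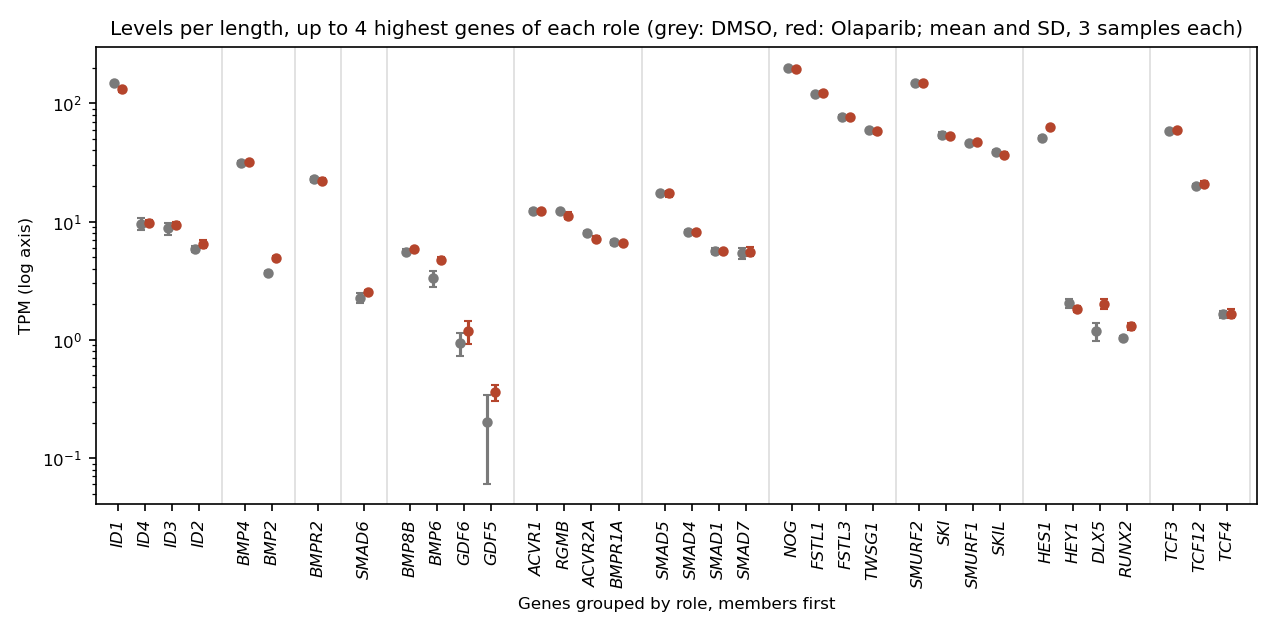
Level per length (TPM, log axis) of the 8 genes and of up to 4 of the most abundant other BMP pathway genes of each role. Points are means and bars SDs of 3 DMSO samples (grey) and 3 Olaparib samples (red). ID1, NOG, FSTL1 and SMURF2 stand above 100 TPM.

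The question put to the data was whether 24 h of PARP inhibition changed these transcripts. BMP2 rose to 1.33 times its DMSO level and ID1 fell to 0.896 times its DMSO level, whereas the other 6 genes did not pass the test. Differences were tested with the quasi-likelihood F-test of edgeR over all 21729 genes that had more than 10 counts in total, and a gene passed at a Benjamini-Hochberg adjusted p under 0.05. It thus called 2 of the 8 genes, against 3.36% of all genes tested (2.15% higher and 1.21% lower after Olaparib). The 8 genes were chosen with earlier results of these data known, so their count beside that share cannot measure enrichment. The log2 fold changes of the 8 genes had a median of 0.069, those of all genes tested one of -0.0042. The 3 Olaparib samples did not overlap the 3 DMSO samples in ID1, BMP2 and SMAD6, against 19.3% of all genes tested. The count of 2 depended on single libraries and fell to 0 without DMSO replicate 2 and to 0 without DMSO replicate 3. It was 1 with DESeq2, 1 without Olaparib replicate 1, 1 without Olaparib replicate 3 and 1 without DMSO replicate 1.

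**Figure D2:**
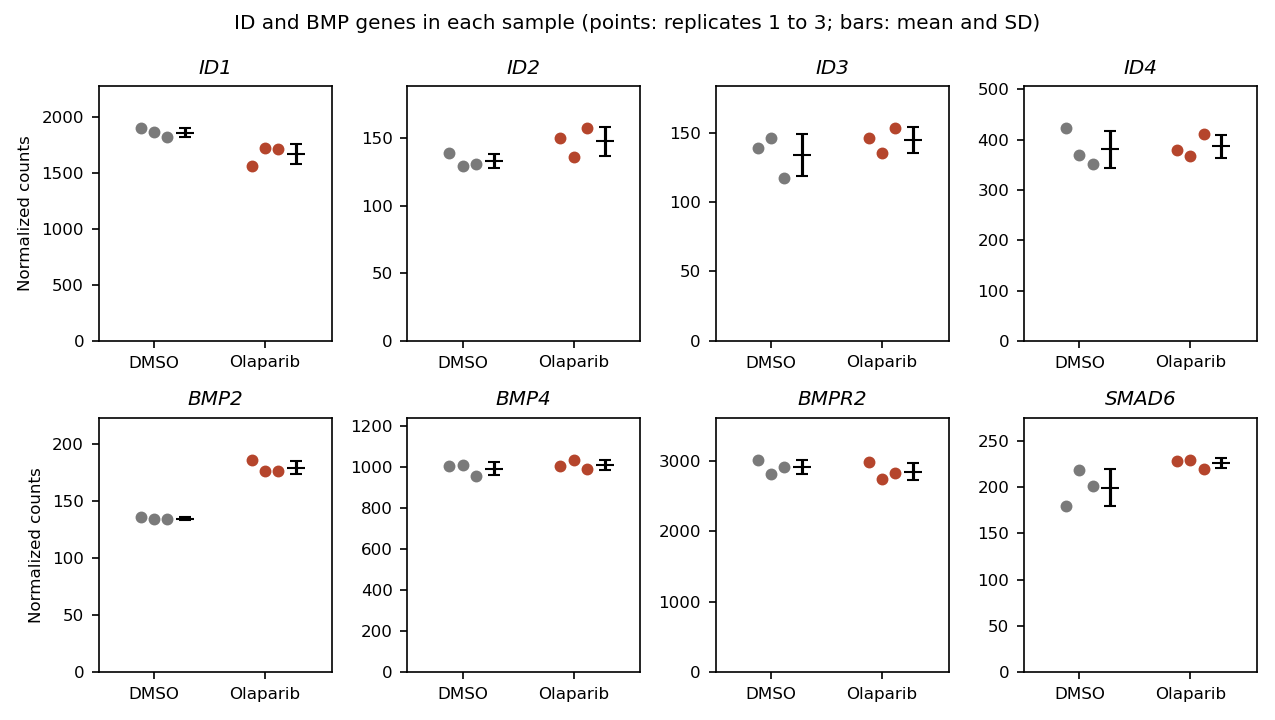
Normalized counts (vertical axes, starting at 0) of the 8 genes in each of 3 DMSO (grey) and 3 Olaparib (red) samples, with the mean and SD beside them. The groups are apart for BMP2, by less for ID1, and barely for SMAD6, while the points of the other 5 genes overlap.

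ID1 (ENSG00000125968, chromosome 20, 31605283 to 31606515 on GRCh38, plus strand), a classic early target of BMP in many cell types, has a single merged exon of 1233 bases in the annotation. Its normalized counts, which are counts scaled to a common library size, were 1563, 1724 and 1715 after Olaparib and 1898, 1868 and 1818 after DMSO. All Olaparib samples were below all DMSO samples, and Olaparib replicate 1 was the lowest of the 6. The mean went from 1861 ± 40.2 to 1667 ± 90.6 (SD, n = 3 each). The log2 fold change was -0.16 (standard error 0.0438, 95% interval -0.25 to -0.069, edgeR, adjusted p = 0.0353). In edgeR, the adjusted p of ID1 was 0.159 without Olaparib replicate 1 and 0.0663 without Olaparib replicate 3. It was 0.146, 0.13 and 0.0629 without DMSO replicates 1, 2 and 3, and it stayed under 0.05 only without Olaparib replicate 2.

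The other ID genes did not pass the test. ID2 (ENSG00000115738, chromosome 2, 8678845 to 8684461, plus strand), known for its part in blocking differentiation and in cell cycle control, had 150, 136 and 157 normalized counts with Olaparib, against 139, 129 and 131 with DMSO. The groups overlapped, with Olaparib replicate 2 within the DMSO range. Its log2 fold change was 0.15 (95% interval -0.064 to 0.37, edgeR, adjusted p = 0.558). Of the ID2 exon bases, 6.55% overlap those of the antisense gene ID2-AS1, which had 2 to 10 counts per sample, and the pseudogene copy ID2B had 0.

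ID3 (ENSG00000117318, chromosome 1, 23557926 to 23559501, minus strand), which is often induced by BMP together with ID1, had 146, 135 and 153 normalized counts with Olaparib, against 139, 146 and 117 with DMSO. DMSO replicate 3 was the lowest sample, and the other samples lay close together. The log2 fold change of ID3 was 0.11 (95% interval -0.11 to 0.34, edgeR, adjusted p = 0.714), and 0.02 without DMSO replicate 3. ID4 (ENSG00000172201, chromosome 6, 19837370 to 19842197, plus strand), the remaining member of the family, had 380, 368 and 412 normalized counts with Olaparib, against 422, 369 and 352 with DMSO. The highest of the 6 samples was a DMSO sample, as was the lowest. The log2 fold change of ID4, 0.024 (95% interval -0.12 to 0.17, edgeR, adjusted p = 0.924), turned to -0.027 without Olaparib replicate 3 and to -0.032 without DMSO replicate 3.

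The makeup of the ID family was compared within each library, where no scaling between libraries can enter. Of the summed TPM of ID1 to ID4, ID1 held 82.8%, 85% and 83.3% in the Olaparib samples and 85.3%, 85.8% and 86.6% in the DMSO samples. The share of ID1 was thus lower in every Olaparib sample, with a mean of 83.7% ± 1.15 against 85.9% ± 0.635 (SD, n = 3 each). ID2 held 4.14% ± 0.351 after Olaparib and 3.42% ± 0.096 after DMSO, also with no overlap. The shares sum to 100%, so a lower share of ID1 by itself raises those of the other members, and the normalized counts of ID2 overlapped. The shares of ID3 (5.99% ± 0.446 and 5.1% ± 0.46) and ID4 (6.19% ± 0.358 and 5.6% ± 0.389) overlapped between the groups. In exact two-sided permutation tests, p was 0.1 for ID1 and ID2 and 0.2 for ID3 and ID4, and 0.2 for each after adjustment over the 4 shares. The smallest p that 3 samples against 3 allow is 0.1.

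BMP2 (ENSG00000125845, chromosome 20, 6767686 to 6780246, plus strand), a ligand best known for inducing bone, had 186, 176 and 176 normalized counts with Olaparib, against 136, 134 and 134 with DMSO. The groups were clearly apart, and the spread within each was small. The mean rose from 135 ± 1.16 to 179 ± 5.8 (SD, n = 3 each). The log2 fold change was 0.42 (standard error 0.099, 95% interval 0.21 to 0.62, edgeR, adjusted p = 0.0113). This was the one member that passed the test with a change of more than 1.2-fold, as did 1.21% of all genes tested. With DESeq2 the adjusted p of BMP2 was 0.0601, and with edgeR it was 0.0556 without DMSO replicate 2 and 0.0609 without DMSO replicate 3.

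BMP4 (ENSG00000125378, chromosome 14, 53949736 to 53958761, minus strand), the close paralog of BMP2, had 1006, 1035 and 990 normalized counts with Olaparib, against 1007, 1013 and 955 with DMSO. The groups overlapped. Its log2 fold change was 0.027 (95% interval -0.067 to 0.12, edgeR, adjusted p = 0.86), and -0.0023 without DMSO replicate 3. For 16.3% of its exon bases, another annotated gene overlaps on the opposite strand, which was not listed in the count table. Per length, BMP4 was the main ligand in every sample. It held 64.1% to 65.5% of the summed TPM of 14 BMP-type ligands after Olaparib and 67.8% to 70.2% after DMSO, whereas BMP2 held 9.74% to 10.4% and 7.92% to 8.28%.

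BMPR2 (ENSG00000204217, chromosome 2, 202376327 to 202567751, plus strand), the main type II receptor for BMPs, had 2979, 2735 and 2819 normalized counts with Olaparib, against 3008, 2804 and 2911 with DMSO. The groups overlapped, and the log2 fold change was -0.031 (95% interval -0.11 to 0.051, edgeR, adjusted p = 0.792). SMAD6 (ENSG00000137834, chromosome 15, 66702236 to 66782849, plus strand), the inhibitor that BMP signaling itself induces, had 228, 229 and 219 normalized counts with Olaparib, against 179, 218 and 201 with DMSO. Each Olaparib sample was above each DMSO sample, but the lowest of the former and the highest of the latter almost touched. Its log2 fold change was 0.17 (95% interval -0.0047 to 0.35, edgeR, adjusted p = 0.358).

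**Figure D3:**
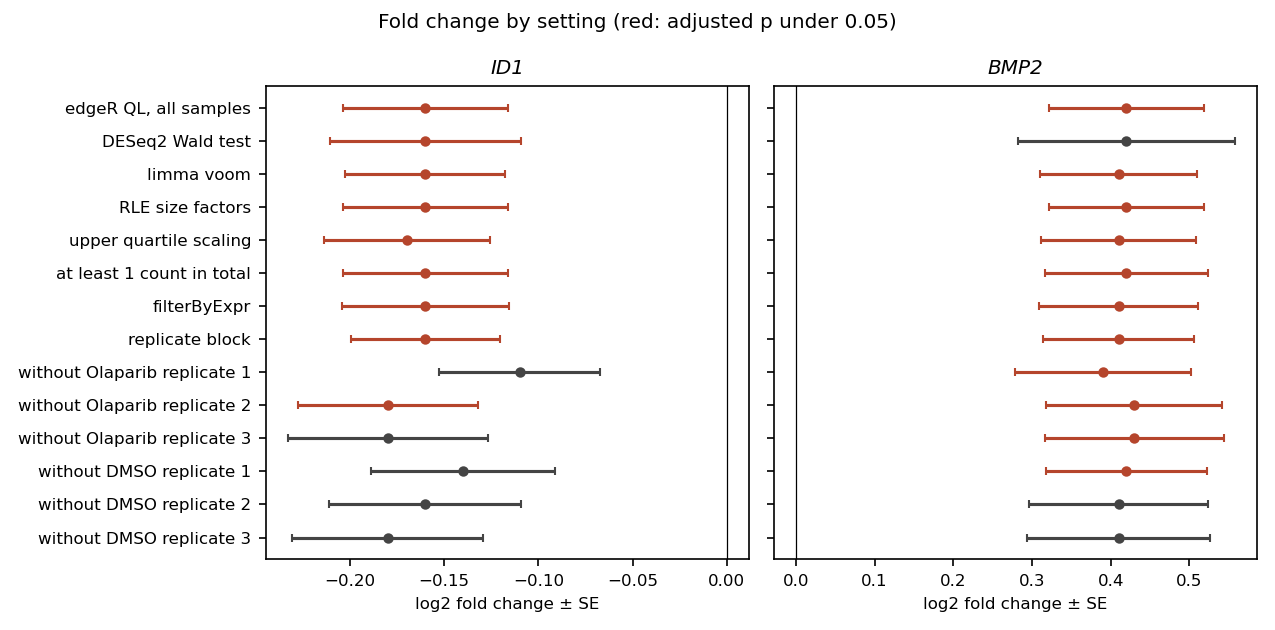
log2 fold change and standard error (horizontal axes) of ID1 and BMP2 under each test, scaling, filter and left-out sample. Red points had an adjusted p under 0.05. The direction stays the same throughout, with ID1 between -0.18 and -0.11 and BMP2 between 0.39 and 0.43 when a sample is left out.

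A further 60 genes of the BMP pathway were read from the same fit. Of these, 48 had more than 10 counts in total, 4 rose (BMP6, GREM1, HES1 and DLX5) and 0 fell, against 2.15% of all genes tested that rose and 1.21% that fell. This list was also chosen with earlier results of these data known, so its counts cannot measure enrichment either. Without adjustment, p was under 0.05 for 7 genes with a higher and 2 with a lower mean after Olaparib, and over all genes tested it was under 0.05 for 14.8%. The median log2 fold change of the 48 was 0.025. The 12 genes not tested, among them the ligands BMP5, BMP7, BMP10, BMP15 and GDF2 and the antagonist CHRD, had at most 3 counts in any library, and 6 of them had 0 in every library, for which the floor of 3 counts stands at up to 0.0848 CPM (counts scaled by the library total).

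Among the 12 other ligands, 7 were tested and 1 passed. BMP6, a ligand with a well known part in iron sensing, had 194, 185 and 178 normalized counts with Olaparib, against 113, 153 and 123 with DMSO. All Olaparib samples were above all DMSO samples, although DMSO replicate 2 was well above the other DMSO samples. The log2 fold change of BMP6 was 0.51 (standard error 0.108, edgeR, adjusted p = 0.00365), and the adjusted p was 0.0384 at most with a sample left out. BMP8B, the other most abundant ligand of this list at 5.71 TPM, had a log2 fold change of 0.067 (edgeR, adjusted p = 0.753). BMP8B and BMP8A are near-identical copies, so their counts are uncertain. Among the ligands, BMP2 and BMP6, with 4.81 to 5.12 and 4.55 to 5.01 TPM after Olaparib, passed the test, and the more abundant BMP4 did not.

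No receptor or co-receptor passed, with 8 of 9 tested. ACVR1, the most abundant type I receptor of this list at 12.3 TPM, had a log2 fold change of -0.0071 (95% interval -0.10 to 0.08). The co-receptor RGMB, at 11.7 TPM, had one of -0.12 (edgeR, adjusted p = 0.248). None of the 5 SMADs of this list passed, and their median log2 fold change was 0.0014. SMAD5, the most abundant of SMAD1, SMAD5 and SMAD9 at 17.4 TPM, had a log2 fold change of -0.006 (95% interval -0.10 to 0.08). The common partner SMAD4, at 8.19 TPM, had one of 0.0014 (95% interval -0.08 to 0.09). SMAD7, the other inhibitory SMAD, had a log2 fold change of 0.046 (95% interval -0.14 to 0.23).

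Of 16 extracellular antagonists and modulators, 11 were tested and 1 rose. GREM1, which binds BMP2 and BMP4 and keeps them from their receptors, had 1627, 1602 and 1571 normalized counts with Olaparib, against 1338, 1315 and 1306 with DMSO. The groups were far apart compared with the spread within them. GREM1 gave a log2 fold change of 0.28 (standard error 0.0424, edgeR, adjusted p = 5.9e-05) and stayed past the test with each sample left out. NOG, at 196 TPM the most abundant antagonist of this list, had 3760, 3907 and 3774 normalized counts with Olaparib, against 3854, 3866 and 3937 with DMSO. The groups overlapped, and its log2 fold change was -0.027 (95% interval -0.10 to 0.04). FSTL1, a follistatin-like secreted protein at 121 TPM, had a log2 fold change of 0.05 (edgeR, adjusted p = 0.435).

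None of the 6 intracellular and membrane inhibitors passed. SMURF2, a ubiquitin ligase for SMADs and their receptors at 148 TPM, had a log2 fold change of 0.01 (95% interval -0.05 to 0.07), and the corepressor SKI, at 53.4 TPM, one of -0.01 (95% interval -0.09 to 0.07). The E proteins, which ID proteins bind, did not pass either. TCF3, at 59.1 TPM, had a log2 fold change of 0.048 (95% interval -0.02 to 0.12) and TCF12, at 20.5 TPM, one of 0.056 (95% interval -0.03 to 0.15).

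Of 9 other genes known as targets of BMP-SMAD signaling, 8 were tested and 2 rose. HES1, a repressor that is also a textbook target of Notch, had 1290, 1382 and 1317 normalized counts with Olaparib, against 1034, 1074 and 1132 with DMSO. The groups did not overlap. HES1 gave a log2 fold change of 0.30 (standard error 0.0465, edgeR, adjusted p = 7.6e-05) and stayed past the test with each sample left out. DLX5, a homeobox gene of bone and limb development, was low, with 36.4, 32.8 and 39.7 normalized counts with Olaparib, against 25.1, 19.6 and 19 with DMSO. Its log2 fold change of 0.78 (standard error 0.222) came with an adjusted p of 0.042 in edgeR, against 0.0514 to 0.181 once a sample was left out and 0.0618 with limma voom. DESeq2 gave no adjusted p for DLX5. HEY1, at 1.94 TPM, had a log2 fold change of -0.14 (edgeR, adjusted p = 0.64). HEY1, MSX1, MSX2, ATOH8, RUNX2 and UNC5B, the 6 tested targets that did not pass, had log2 fold changes from -0.61 to 0.39. Both ends came from low counts. UNC5B, at -0.61 (standard error 0.809), had 1 to 5 counts per library. MSX1, at 0.39 (standard error 0.254), had 16 to 29. The median log2 fold change of the 8 was 0.31. Of these, 5 had a higher and 3 a lower mean after Olaparib, and several had few counts. The median thus does not show a shared response of the targets.

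**Figure D4:**
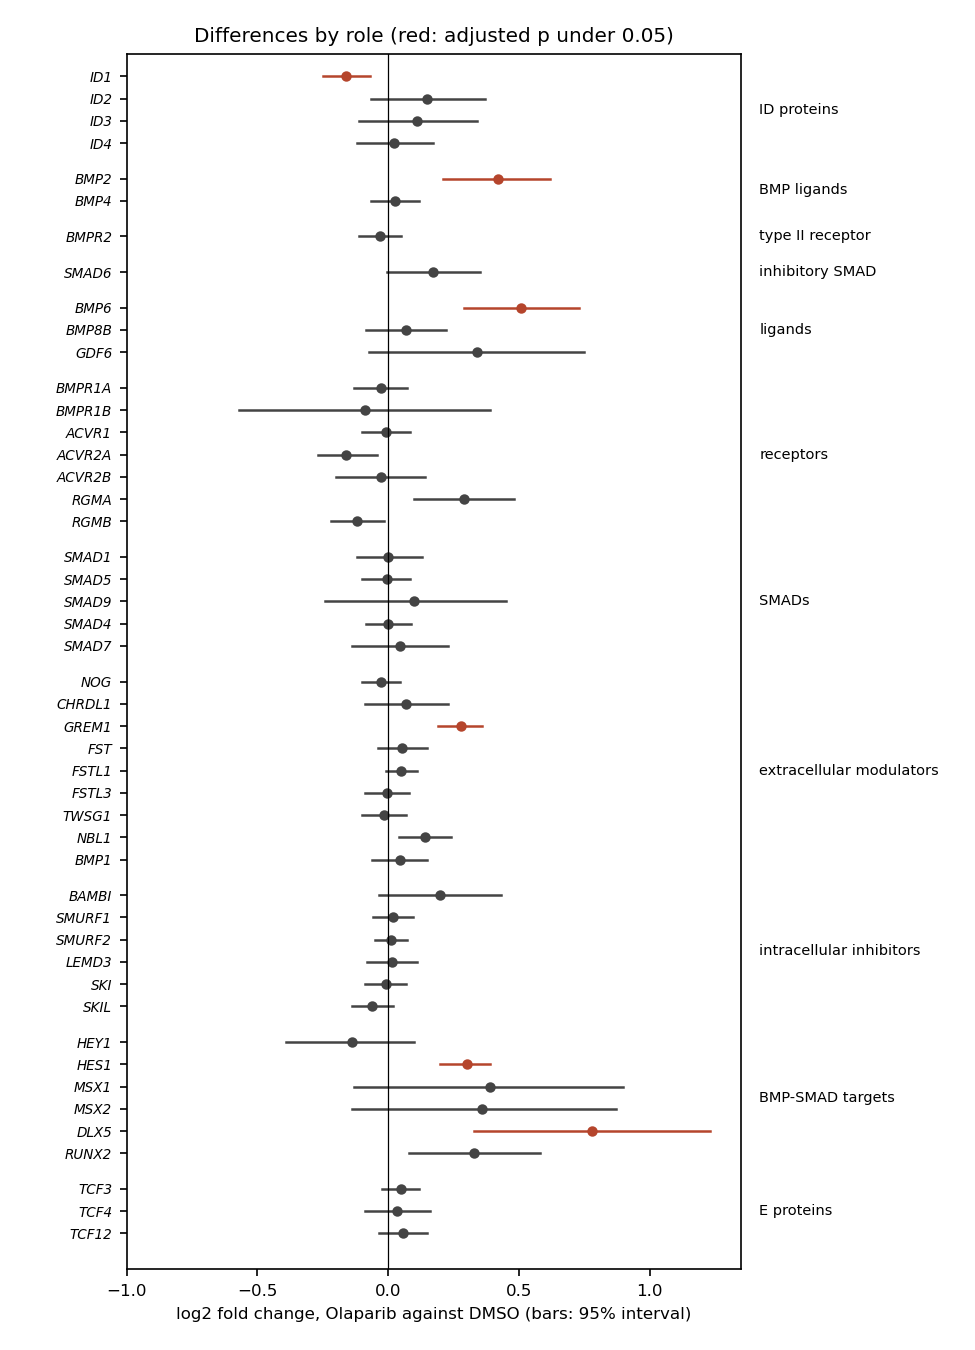
log2 fold change of Olaparib against DMSO (horizontal axis) with its 95% interval for the 47 tested genes whose mean count reached 20, grouped by role. Red marks an adjusted p under 0.05 and covers ID1 to the left of 0 and BMP2, BMP6, GREM1, HES1 and DLX5 to the right.

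To place the ID genes among all transcripts, the mean log2 CPM of ID1 to ID4 was taken in each sample. Around its own average it stood at -0.0051, -0.041 and 0.092 in the Olaparib samples and at 0.059, -0.0023 and -0.10 in the DMSO samples. The mean thus varied more within the groups than between them. The 5 genes with the most similar pattern over the 6 samples were DCAF17, ENSG00000262879, FAM241B, ZNF605 and TMTC4, out of 11989 genes whose mean count reached 100. Their root mean square difference from the ID mean was 0.0167 to 0.026 on the log2 scale, against a median of 0.0875 for all genes compared. None of the 5 passed the test, which their choice made likely beforehand, since the ID mean itself differed little between the groups. That mean joined ID1 (log2 fold change -0.16) with ID2 (0.15), ID3 (0.11) and ID4 (0.024), so it does not stand for ID1.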

How the data were processed

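RNA was measured in 6 samples, 3 per group, matched to Olaparib or DMSO by the sample labels. The study's methods describe stranded libraries of poly(A)-enriched RNA, reads trimmed with Trimmomatic, mapped to GRCh38 with STAR and assigned to genes with featureCounts. The values deposited by the authors are raw counts of reads per gene. The strand setting and the removal of duplicates are not given in the sources used here, so counts of overlapping genes are uncertain.

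Genes with more than 10 counts in total were kept and scaled by edgeR's TMM method (factors 0.9946 to 1.013), and the difference between Olaparib and DMSO was tested with the quasi-likelihood F-test of edgeR, p-values being adjusted after Benjamini and Hochberg over all 21729 genes. Standard errors were taken from the F statistic, and 95% intervals from the t distribution. TPM values were computed from the counts with merged exon lengths of GENCODE release 44, since the table holds no lengths. That annotation covered 96% of the genes tested. Chi-square per degree of freedom between replicates was 1.81 to 4.11. No sample was thus a copy of another, and replicates differed by more than counting error alone. This ratio cannot tell separate cultures from separate libraries of the same culture. It also cannot exclude a second reading of a library that differed for technical reasons. The floor was 3 counts per library, and floors cover counting error only. Promoters came from RefSeq (GRCh38.p14). The test was checked on simulated counts, with changes given only to genes with more than 600 counts in total. It called 74.6% of 67 genes with an absolute log2 fold change of 0.3, and 6 of 21067 unchanged genes. Smaller changes, such as that of ID1, were not simulated.

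The members and gene lists were chosen with earlier results of these data known. The named genes are the 8 members, the pathway genes that passed the test, the pair of most abundant genes of each role, the 5 genes most similar to the ID mean and genes overlapping a member. A few further list genes (SMAD7, BMP8A, the remaining targets and genes below the filter) were named after their values were seen. Alternatives were DESeq2, limma voom, other scalings and filters, a replicate block, a fold-change threshold, transcript length and leaving out each sample. Fits ran in edgeR 4.0.16, DESeq2 1.42.0 and limma 3.58.1 under R 4.3.3, and the remaining steps in Python 3.11.15.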

Additional observations from a re-analysis of the deposited data

How the results depend on the processing

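Over all genes, 730 passed the test, against 262 with the fold-change threshold, 1322 with the replicate block and 398 to 870 with a sample left out. Of the 8 members, 2 passed, against 1 with DESeq2, 1 with the fold-change threshold and 0 to 2 with a sample left out. The pathway count of 4 was 3 to 4 with a sample left out. The log2 fold change of ID1 lay between -0.18 and -0.11 with a sample left out. ID1 lost the call in 5 of the 6 such tests, which have fewer samples. The log2 fold change of BMP2 was 0.42 with DESeq2, where its adjusted p of 0.0601 no longer passed. With a sample left out, that of BMP2 was 0.39 to 0.43. ID4 (-0.032 to 0.1) and BMP4 (-0.0023 to 0.043), neither of which passed, changed sign when a sample was left out. The cause of these changes was not tested. Other scalings moved the median of all genes to -0.0132 at most and changed no member's direction.

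The replicate numbers are shared between the groups. Same-numbered samples correlated at -0.204, 0.263 and -0.319 in their deviations from the group means over 11997 genes. The highest correlation, 0.484, was between Olaparib replicate 3 and DMSO replicate 1. With so few samples, these values cannot tell whether same-numbered samples were handled together. With the replicate block 1322 genes passed over all, against 730 without it, and the count of members stayed at 2. The differences in share of the ID family kept their direction with transcript length and with each sample left out (ID1 -2.86 to -1.77 percentage points). The 95% intervals of the log2 fold changes of ID2 (-0.064 to 0.37) and ID3 (-0.11 to 0.34), the pair of ID genes with the fewest counts, were wider than that of ID1 (-0.25 to -0.069).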
